A study of Xenopus tropicalis with 12 samples.

Results

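The bZIP genes of Xenopus tropicalis were followed across the early gastrula embryo. They were chosen from the study's transcription factor catalog as genes with a Pfam domain whose name begins in bZIP. Of the 1240 genes listed in the catalog's expression table, 62 qualified. Of these, 61 have a row among the 26550 gene models of the deposited tables, and mlxipl, which has none, was not analysed here. Early gastrula embryos were cut into animal cap, dorsal, lateral and ventral marginal zones and vegetal mass, and polyA+ RNA was sequenced from each of these regions and from uncut embryos of the same stage. The 12 libraries form 6 groups of 2. The study's methods give a different clutch of sibling embryos for each round, so that replicate 1 of every group shares a clutch and replicate 2 shares another, and each region library is a pool of explants. A value is therefore a mean over many embryos of a single clutch, and in such bulk samples fewer cells of a type and less RNA per cell cannot be told apart.

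A bZIP protein grips DNA with a stretch of basic residues and pairs with another bZIP protein through the leucine zipper that follows it, so that the partners present decide which sites are bound. Fos and Jun proteins together make AP-1 and are encoded in part by immediate-early genes, which cells transcribe within minutes of a stimulus. The Atf, Creb and Xbp1 proteins include effectors of cAMP and of stress in the endoplasmic reticulum, the Cebp proteins act in liver, fat and blood differentiation in mammals, and small Maf proteins are the partners of the Cnc and Bach proteins that answer oxidative stress and heme.

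By name and domain the members were grouped as fos/jun (8 genes), atf/creb (17), cebp (6, with ddit3), maf (13, with the large and small Maf genes and the Cnc and Bach genes) and others (18). The last group holds xbp1, batf and batf3, and the PAR genes tef, dbp and hlf with their relatives nfil3, thibz and LOC100486093-like. It also holds 9 genes whose best bZIP match is weaker than an E-value of 0.0001. Those weak matches include gcc1, nrbf2 and diaph2, whose proteins are known as a Golgi coiled-coil protein, an autophagy factor and a formin, and they are kept because the catalog lists them. The name of Xetrov90001976 is junb.2 in the catalog's expression table and jund.2 in its gene list, and it is written junb.2 here. On a newer RefSeq assembly of the species atf3 lies next to batf3 and atf5 next to atf5.2, and 1 gene, tmed10, lies between fos and batf. The libraries were not stranded and RSEM divides reads among similar genes, so that levels of such neighbours and copies are uncertain where their transcripts overlap or match.

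Region markers followed the labels. In animal cap against vegetal mass foxi1, a marker of animal cells, was higher by 6.62 on the log2 scale (adjusted p = 0.00198), while the endodermal genes sox17a and mixer were lower, with log2 fold changes of -7.71 and -7.11 (adjusted p = 0.00138 and 0.00146). The organizer gene gsc had a log2 fold change of 6.41 in dorsal against ventral marginal zone (adjusted p = 0.0346), and ventx1.1 one of -4.62 (adjusted p = 0.0556, or 0.00561 with the replicate number as a block). Markers were not confined to 1 region. Vegetal masses held mixer at 4494 and 4345 TPM, and the marginal zones at 738 to 1747 TPM. Animal caps still held it at 47.8 and 13.0 TPM. The level of gsc was 310 and 470 TPM in dorsal marginal zones and 160 and 262 TPM in vegetal masses. Expression in both regions and tissue carried across a cut cannot be told apart here. Expected counts per library ran from 14634582 to 29166548, and every replicate 2 library was shallower than every replicate 1 library.

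The level of the bZIP genes rested on few members. All 61 were above 0 in at least 1 library, 46 in every library, and 5 had no more than 3 counts in any library. In whole embryos, by the mean of the 2 libraries, 41 reached 1 TPM, 16 exceeded 10 TPM and 5 exceeded 100 TPM. TPM is corrected for transcript length and library depth, so that levels of different genes can be compared. The 5 highest were xbp1 (411 TPM), atf1 (379 TPM), tef, atf4 and creb1. Of the rest, 14 stayed below a mean of 1 TPM in all 6 groups. The whole embryo median over the 61 genes was 2.97 TPM. It was 1.61 TPM for fos/jun, 5.36 for atf/creb, 6.60 for cebp, 1.22 for maf and 0.490 for the others.

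**Figure D1:**
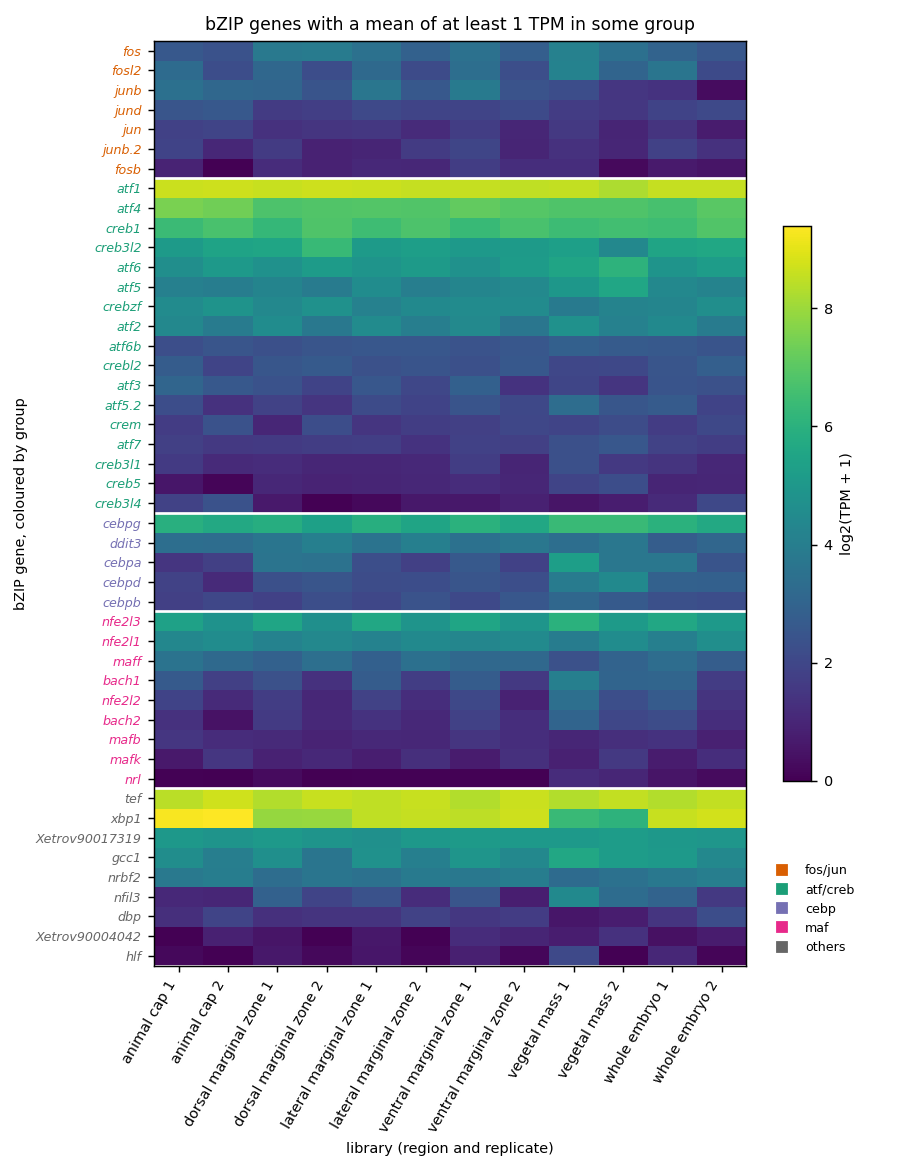
Level, as log2(TPM + 1), of the 47 bZIP genes that reach a group mean of 1 TPM, 1 column per library and 1 row per gene, with gene names coloured by group. The bright rows of atf1, tef and xbp1 carry 48.4% to 70.1% of the bZIP TPM of a library. The row of xbp1 is brightest in animal caps and darkest in vegetal masses.

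The bZIP genes together took 0.147% to 0.216% of all TPM in a library. Summed over xbp1, atf1 and tef, the share of bZIP TPM was 66.8% and 70.1% in animal caps and 48.4% and 49.9% in vegetal masses. The share of xbp1 alone was 30.8% and 31.3% in animal caps against 5.15% and 4.49% in vegetal masses, while the shares of atf1 (19.4% and 19.1% against 23.2% and 20.3%) and tef (16.6% and 19.7% against 20.1% and 25.1%) were higher in vegetal masses. In TPM, however, both atf1 and tef were lower in the vegetal mass than in the animal cap of each clutch. The summed level of the cebp genes was 76.3 and 65.3 TPM in animal caps, 69.4 to 87.1 TPM in the 6 marginal zone libraries, and 151 and 132 TPM in vegetal masses. That of the maf genes was also higher in vegetal masses (121.5 and 83.6 TPM) than in animal caps (84.5 and 65.8 TPM). In each clutch the atf/creb and other genes had lower sums in vegetal mass, while fos/jun was higher in clutch 1 and lower in clutch 2.

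The most abundant members of the atf/creb and cebp groups differed in how level they were. The level of atf1, a partner of Creb1 at cAMP response elements, was 397 and 412 TPM in animal caps, 392 and 406 in dorsal, 398 and 385 in lateral and 376 and 362 in ventral marginal zones, 370 and 299 in vegetal masses, and 378 and 380 in whole embryos (replicate 1, then replicate 2, here and below). Only vegetal mass 2 lay clearly below the others. That of cebpg, a Cebp protein without an activation domain that serves as a partner, was 60.01 and 49.5 TPM in animal caps, 57.3 and 39.1, 58.6 and 43.6, and 63.8 and 48.3 in dorsal, lateral and ventral marginal zones, 82.7 and 80.8 in vegetal masses, and 63.0 and 50.4 in whole embryos. Both vegetal masses were above all other libraries.

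The Cnc gene nfe2l3 was highest of the maf group, with 40.7 and 27.0 TPM in animal caps, 45.0 and 24.8, 48.6 and 28.3, and 45.5 and 29.1 in the marginal zones in the same order, 63.8 and 34.1 in vegetal masses, and 49.1 and 32.7 in whole embryos. The AP-1 gene fosl2 was highest of fos/jun in whole embryos, with 8.77 and 3.63 TPM in animal caps, 7.75 and 3.61, 8.33 and 3.43, and 9.42 and 3.77 in the marginal zones, 17.0 and 7.14 in vegetal masses, and 11.5 and 3.37 in whole embryos. In both genes replicate 1 was above replicate 2 in every group, and the vegetal mass was the highest region within each clutch.

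By mean TPM over the 5 regions, 25 of the 47 members with at least 1 TPM in some group were highest in vegetal mass (53.2%) and 13 in animal cap (27.7%). Among all 14794 genes that reach this level the shares were 48.9% and 22.8%, so that the bZIP genes lay close to the background. The highest region was the same in both clutches for 20 of the 47 members in vegetal mass, 7 in animal cap, 2 in dorsal and 1 in ventral marginal zone, where 31.9%, 11.6%, 2.9% and 1.84% of all 14794 genes were so. The 20 were spread over the groups, with 8 atf/creb, 5 maf, 4 cebp, 2 other and 1 fos/jun gene, and no cebp or maf gene was highest in animal cap in both clutches.

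The comparison of animal cap with vegetal mass asked which bZIP genes differ between the future ectoderm and the yolky endoderm. The gene xbp1 was higher in animal cap, and cebpa, cebpd, creb5 and fos were lower, at an adjusted p under 0.05 in edgeR's quasi-likelihood test. These are 5 of the 50 members tested, 1 higher and 4 lower, where 8.04% of all 15727 genes tested passed, 3.64% higher and 4.4% lower. The share of members that passed in this fit, 10%, was near that background. With the replicate number as a block 29 members passed (58%), 11 higher (22%) and 18 lower (36%). Of all genes 40.6% passed with the block, 19.5% higher and 21.2% lower. A departure of the members from these shares was not tested. Fold changes below are from the fit without the block unless stated. The median log2 fold change was -0.13 over the 50 members and -0.03 over all genes tested. Scaling by library size alone moves the median of all genes by -0.16 (log2) and gives 6 calls. The share of all genes that passed was not counted for this scaling or for the fits without 1 library. Without animal cap 2 only xbp1 passed, without animal cap 1 or vegetal mass 2 there were 3 calls, and without vegetal mass 1 there were 4.

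**Figure D2:**
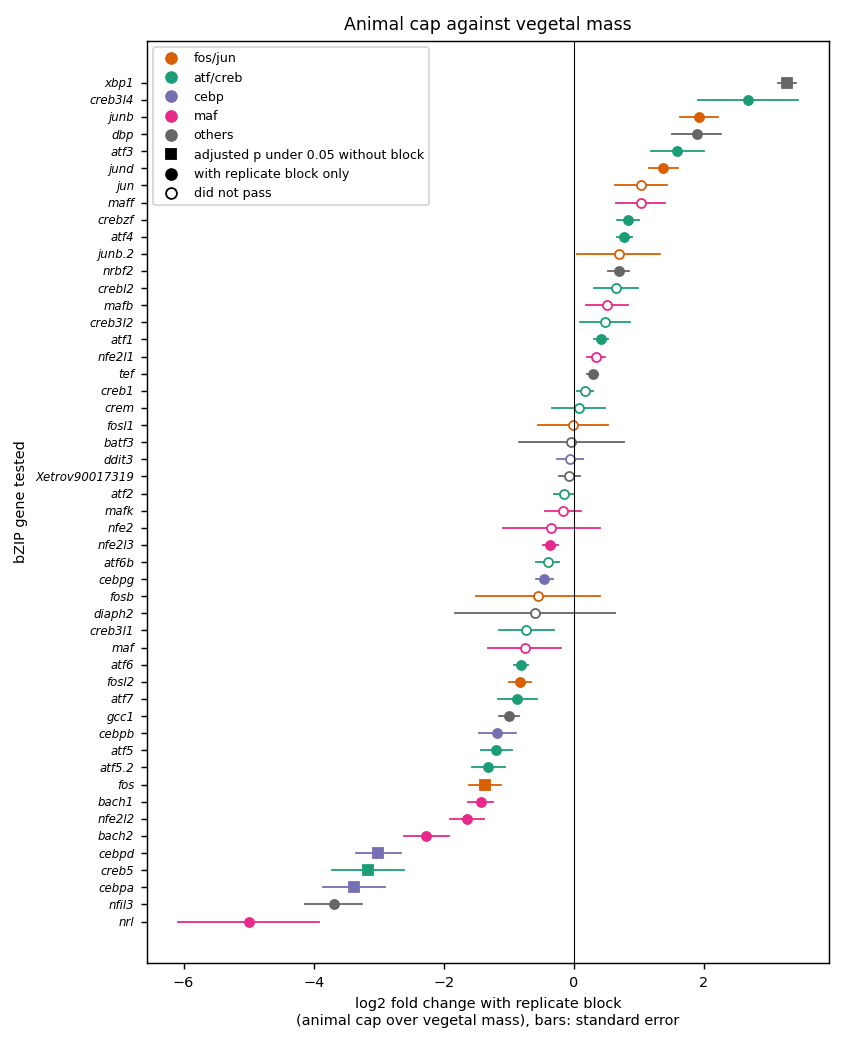
Log2 fold change of the 50 bZIP genes tested in animal cap over vegetal mass, from the fit with the replicate block, with bars for the standard error. Squares passed without the block (5 genes), filled circles only with it and open circles in neither fit. The value of nrl rests on 1 count in the 2 animal cap libraries.

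The level of xbp1, whose protein drives the unfolded protein response once its mRNA is spliced in the cytoplasm, was 632 and 675 TPM in animal caps, 242 and 246 in dorsal, 363 and 376 in lateral and 356 and 412 in ventral marginal zones, 82.1 and 65.9 in vegetal masses, and 387 and 434.5 in whole embryos. All marginal zone libraries lay between the animal caps and the vegetal masses without overlap. The animal cap exceeded the vegetal mass 7.70-fold in clutch 1 and 10.2-fold in clutch 2, with a log2 fold change of 3.30 (SE 0.26, adjusted p = 0.00115), and this call held without each of the 4 animal cap and vegetal mass libraries in turn. Without the block xbp1 also passed in animal cap over dorsal marginal zone (log2 fold change 1.39, adjusted p = 0.0454) and in each marginal zone over vegetal mass, with log2 fold changes of 1.91 for dorsal, 2.44 for lateral and 2.49 for ventral (adjusted p = 0.0154, 0.00926 and 0.00935). With the block the animal cap was also above the lateral and ventral marginal zones, by 0.86 and 0.81 on the log2 scale (adjusted p = 0.00378 and 0.00493). Dorsal against ventral marginal zone did not pass, with a log2 fold change of -0.59 (adjusted p = 1 without and 0.0641 with the block), although both dorsal libraries were below both ventral ones.

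The other members higher in animal cap passed only with the block. Among them jund, an AP-1 gene that is transcribed more steadily than fos or junb in mammals, was at 4.54 and 5.09 TPM in animal caps, 2.07 and 2.39, 3.20 and 2.82, and 2.79 and 3.27 in dorsal, lateral and ventral marginal zones, 2.16 and 1.87 in vegetal masses, and 2.74 and 3.20 in whole embryos. Both animal caps were above all 10 other libraries. Over vegetal mass this was a log2 fold change of 1.40 (SE 0.34), with an adjusted p of 0.0507 without and 0.00106 with the block.

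The PAR gene dbp, a circadian output factor in mammals, was at 1.43 and 2.79 TPM in animal caps, 1.45 and 1.69, 1.68 and 2.66, and 1.91 and 2.21 in the marginal zones, 0.500 and 0.690 in vegetal masses, and 1.72 and 3.71 in whole embryos. It set the vegetal mass apart rather than the animal cap, since both vegetal libraries were below the 10 others. The stress-induced gene atf3 was at 7.47 and 4.97 TPM in animal caps, 4.22 and 2.7, 4.82 and 3.02, and 6.34 and 1.59 in the marginal zones, 2.87 and 1.70 in vegetal masses, and 4.44 and 4.02 in whole embryos. Its ventral marginal zone 2 was below both vegetal masses, so the regions overlapped. The log2 fold change in animal cap over vegetal mass was 1.97 (SE 0.61) for dbp and 1.57 (SE 0.60) for atf3, with adjusted p values of 0.00322 and 0.0122 with the block and 0.108 and 0.183 without.

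The gene creb3l4, for a Creb-like protein held in the membrane of the endoplasmic reticulum until it is cleaved, was rare, with 2.61 and 4.22 TPM in animal caps, 0.580 and 0, 0.160 and 0.520, and 0.540 and 0.830 in the marginal zones, 0.460 and 0.700 in vegetal masses, and 1.2 and 3.08 in whole embryos. The animal cap values rest on 33 and 32 counts, and no other region library had more than 8. The level in whole embryo 2 lay within the range of the animal caps and above all other regions. Animal cap over vegetal mass gave a log2 fold change of 2.71 (SE 1.13), with an adjusted p of 0.222 without and 0.0199 with the block.

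**Figure D3:**
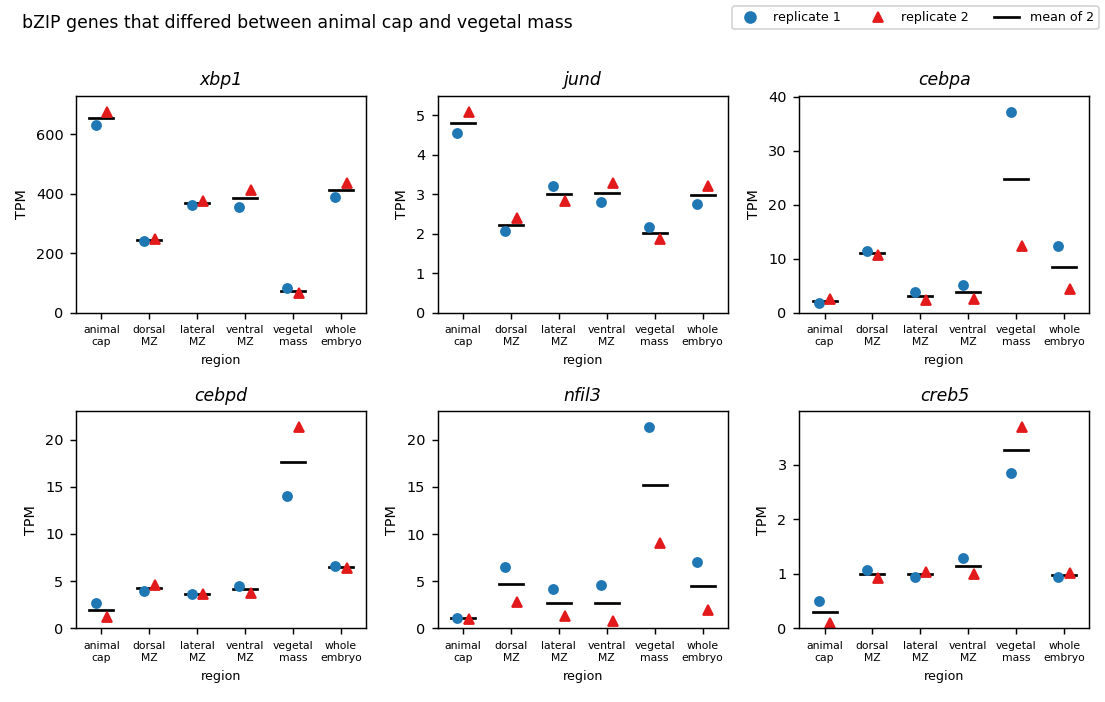
TPM of 6 bZIP genes by region, with 1 circle per replicate 1 library, 1 triangle per replicate 2 library and a bar at their mean. The genes xbp1 and jund are highest in both animal caps, while cebpa, cebpd, nfil3 and creb5 are highest in the vegetal mass of each clutch.

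The cebp genes were the only group in which every member tested had a lower estimate in animal cap, 5 of 5 with a median log2 fold change of -1.09. Among all 15727 genes tested 8121 estimates were negative, and whether so small a group departs from that share was not tested. Of these cebpa and cebpd passed without the block, cebpb and cebpg also with it, and ddit3 in neither fit. The level of cebpa, a driver of liver, fat and myeloid differentiation in mammals, was 1.71 and 2.45 TPM in animal caps, 11.4 and 10.7 in dorsal, 3.81 and 2.41 in lateral and 5.18 and 2.55 in ventral marginal zones, 37.3 and 12.3 in vegetal masses, and 12.3 and 4.45 in whole embryos. Vegetal mass was the highest region in each clutch, although its libraries differed widely from each other, and the dorsal marginal zones were the next highest region. Vegetal mass 2 (12.34 TPM) was level with whole embryo 1 (12.32 TPM). The log2 fold change was -3.37 (SE 0.57, adjusted p = 0.0139). It was lost without either animal cap library (adjusted p = 0.0951 without animal cap 1 and 0.0675 without animal cap 2).

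The level of cebpd was 2.64 and 1.17 TPM in animal caps, 3.93 and 4.62, 3.59 and 3.62, and 4.52 and 3.74 in the marginal zones, 14.0 and 21.3 in vegetal masses, and 6.64 and 6.38 in whole embryos. The animal caps were the lowest, the marginal zones lay close together, and the vegetal masses stood apart from all. Its log2 fold change was -3.13 (SE 0.46, adjusted p = 0.00779, or 0.0588 without animal cap 2). The level of cebpb was 2.42 and 3.05 TPM in animal caps, 2.56 and 3.82, 2.99 and 4.29, and 3.16 and 4.82 in the marginal zones, 7.75 and 5.38 in vegetal masses, and 3.97 and 3.69 in whole embryos. Vegetal masses were above all other libraries here too, but the log2 fold change of -1.09 (SE 0.48) passed only with the block (adjusted p = 0.00927, against 0.247).

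Both cebpa and cebpd were also below vegetal mass in lateral marginal zone without the block, by log2 fold changes of -2.87 and -2.21 (adjusted p = 0.0444 and 0.0473). With it cebpa was lower in animal cap than in dorsal marginal zone as well, with a log2 fold change of -2.43 without the block and -2.50 with it (adjusted p = 0.137 and 0.0217). The gene ddit3, whose protein Chop pairs with other Cebp proteins and blocks their binding, was at 9.48 and 9.14 TPM in animal caps and 9.59 and 12.2 TPM in vegetal masses, and its log2 fold change of -0.10 (SE 0.42) was within its error.

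Among atf/creb genes as many passed upward as downward with the block, 5 and 5 of 17, where 19.5% and 21.2% of all genes did. The level of creb5, whose protein can pair with Jun, was 0.500 and 0.0900 TPM in animal caps, 1.06 and 0.930, 0.940 and 1.04, and 1.29 and 0.990 in the marginal zones, 2.85 and 3.68 in vegetal masses, and 0.940 and 1.01 in whole embryos. Both vegetal masses were above, and both animal caps below, all other libraries. The animal cap values rest on 9.07 and 1 expected counts. Between these poles the log2 fold change was -3.31 (SE 0.68, adjusted p = 0.0275), and the call was lost without animal cap 2 (0.105), vegetal mass 1 (0.0558) or vegetal mass 2 (0.120).

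The neighbours atf5 and atf5.2, relatives of the stress effector Atf4, moved the same way. Their expected counts were fractional (464.07 and 141.93 in animal cap 1), since RSEM divides reads among similar genes. The pair may therefore not be independent of each other. The level of atf5 was 15.9 and 14.8 TPM in animal caps, 17.7 and 14.1, 22.9 and 15.1, and 18.2 and 20.6 in the marginal zones, 30.4 and 46.8 in vegetal masses, and 20.0 and 17.2 in whole embryos. That of atf5.2 was 3.61 and 1.54 TPM in animal caps, 2.65 and 1.75, 3.38 and 2.72, and 4.46 and 3.14 in the marginal zones, 9.27 and 4.77 in vegetal masses, and 5.50 and 2.68 in whole embryos. Vegetal masses were highest in atf5 over all libraries and in atf5.2 within each clutch. Log2 fold changes in animal cap over vegetal mass were -1.23 (SE 0.32) and -1.32 (SE 0.42), with adjusted p values of 0.00381 and 0.00243 with the block and 0.0642 and 0.110 without.

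The remaining atf/creb calls, all with the block, were smaller. Lower in animal cap were atf6, a sensor of endoplasmic reticulum stress (log2 fold change -0.84, adjusted p = 0.000263 with the block), and atf7. Higher in animal cap were atf4 (0.76), crebzf (0.83) and atf1 (0.43), with adjusted p values of 0.000637, 0.00437 and 0.0158 with the block.

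In the maf group none of 11 members tested passed upward in animal cap, and 5 passed downward with the block (0 without it). With the block 19.5% of all genes passed upward and 21.2% downward, and without it 3.64% and 4.4%. A departure of the group from these shares was not tested. The level of bach1, a repressor that heme displaces from DNA, was 5.28 and 2.45 TPM in animal caps, 4.09 and 1.53, 5.68 and 2.27, and 5.62 and 1.97 in the marginal zones, 15.8 and 7.12 in vegetal masses, and 7.39 and 2.20 in whole embryos. That of bach2 was 1.56 and 0.370 TPM in animal caps, 2.01 and 1.13, 1.59 and 1.11, and 2.50 and 1.33 in the marginal zones, 7.27 and 3.0 in vegetal masses, and 3.55 and 1.34 in whole embryos. Each clutch had its highest level in vegetal mass, although the vegetal mass of clutch 2 was below the whole embryo of clutch 1. With the block the adjusted p was 0.000346 for bach1 (log2 fold change -1.43, SE 0.66 without the block) and 0.000675 for bach2 (-2.28, SE 0.66), and without it 0.272 and 0.0891.

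The level of nfe2l2, which encodes the oxidative stress factor Nrf2, was 2.74 and 1.15 TPM in animal caps, 2.24 and 1.07, 2.60 and 1.33, and 3.13 and 0.850 in the marginal zones, 9.78 and 3.75 in vegetal masses, and 5.49 and 1.65 in whole embryos. The vegetal mass was highest in each clutch, and the log2 fold change was -1.66 (SE 0.70, adjusted p = 0.225 without and 0.000954 with the block). The level of nrl, known for rod photoreceptor fate in mammals, was 0.05 and 0 TPM in animal caps, 0.220 and 0, 0.05 and 0.05, and 0.05 and 0 in the marginal zones, 1.31 and 0.990 in vegetal masses, and 0.460 and 0.220 in whole embryos. Vegetal masses held 42 counts and animal caps 1, a ratio per total counts of 39.4 with an exact 95% interval for counting error of 6.69 to 1592, and nrl passed with the block alone (adjusted p = 0.00516, against 0.0793).

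Outside these groups nfil3, whose protein binds the sites of the PAR proteins and represses there, had one of the steepest profiles. Its level was 1.13 and 1.01 TPM in animal caps, 6.54 and 2.78 in dorsal, 4.13 and 1.30 in lateral and 4.57 and 0.730 in ventral marginal zones, 21.3 and 9.10 in vegetal masses, and 7.01 and 1.98 in whole embryos. Both vegetal masses were above all other libraries, by 18.9-fold and 9.01-fold over the animal cap of their clutch. For animal cap over vegetal mass the log2 fold change of -3.65 (SE 0.90) had an adjusted p of 0.0534 without and 0.000297 with the block. With the block nfil3 was also lower in animal cap than in dorsal marginal zone (log2 fold change -2.10 without and -2.14 with the block, adjusted p = 0.812 and 0.0311). Its PAR relative tef hardly varied, with a log2 fold change of 0.30 in animal cap over vegetal mass (adjusted p = 0.714, or 0.0273 with the block).

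The fos/jun genes split, 5 with a positive and 3 with a negative estimate. The level of fos was 5.05 and 4.20 TPM in animal caps, 13.1 and 14.2 in dorsal, 10.5 and 6.55 in lateral and 10.2 and 6.03 in ventral marginal zones, 16.4 and 10.0 in vegetal masses, and 6.98 and 4.88 in whole embryos. The animal caps were the lowest regions, and dorsal marginal zones and vegetal masses overlapped at the top. The log2 fold change in animal cap over vegetal mass was -1.36 (SE 0.33, adjusted p = 0.0477), a call that was lost without any 1 of the 4 libraries compared (adjusted p of 0.0868 to 0.236) and without the filter on low counts (0.0806). With the block it passed (0.00192), as did animal cap against dorsal marginal zone, with a log2 fold change of -1.61 without and -1.62 with the block (adjusted p = 0.0833 and 0.00375). In fosl2 the log2 fold change was -0.83, with an adjusted p of 0.534 without and 0.00400 with the block.

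Of 18 immediate-early genes without a bZIP domain that were listed beside fos and jun, 13 were matched by name. In animal cap against vegetal mass egr4 and klf2 were higher and klf6 and myc lower. Of all genes 3.64% passed as higher and 4.4% as lower. With the block 4 of 13 were higher and 5 lower, where 19.5% and 21.2% of all genes were. A departure of the list from these shares was not tested. The median log2 fold change of the 13 genes was -0.01, against -0.03 over all genes tested.

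Over all 10 pairs of regions 5 members passed in at least 1 pair, where 8.48% of all genes did, and with the block 31, where 46.1% did. The 5 are those of animal cap against vegetal mass, and the count fell to 3 without animal cap 1, either dorsal or either lateral library or vegetal mass 2, and to 1 without animal cap 2. Each of the 31 passed in a pair that includes vegetal mass. With the block 12 members (24%) were higher in vegetal mass than in all 4 other regions and 3 (6%) were lower. Of all genes 10.1% and 10.2% were so, and a departure from these shares was not tested. Higher in vegetal mass were atf5, atf5.2, atf6, bach1, bach2, cebpd, cebpg, fosl2, gcc1, nfe2l2, nfil3 and nrl, and lower were dbp, junb and xbp1. With the block, pairs without vegetal mass gave calls for xbp1, atf4, jund, cebpa, fos and nfil3, each of them between animal cap and a marginal zone. By pair, with the block, 6 members passed in animal cap against dorsal (4.95% of all genes), 2 against lateral (3.56%) and 1 against ventral marginal zone (4.08%), and 21 passed in dorsal (33.3%), 19 in lateral (29.4%) and 18 in ventral marginal zone (25.4%) against vegetal mass. Without it these were 1 in animal cap against dorsal marginal zone (1.35%), and 1, 3 and 1 in dorsal, lateral and ventral marginal zone against vegetal mass (2.75%, 2.99% and 2.17%). The pairs share libraries and are not independent of each other.

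Dorsal and ventral marginal zones were compared to find bZIP genes of the dorsal or ventral mesoderm. None of the 50 members passed, without or with the block, where 0.0445% and 1.46% of all genes did. At an unadjusted p under 0.05 there were 3 (2.63% of all genes), of which fos and cebpa were higher dorsally and xbp1 lower, and DESeq2 called 0. Both dorsal libraries of fos (13.1 and 14.2 TPM) were above both ventral ones (10.2 and 6.03 TPM), with a log2 fold change of 0.85 (SE 0.32). For cebpa the dorsal libraries (11.4 and 10.7 TPM) were likewise above the ventral ones (5.18 and 2.55 TPM), with a log2 fold change of 1.62 (SE 0.53, adjusted p = 1, or 0.194 with the block). The level of creb3l2, a relative of creb3l4, was 45.4 and 80.6 TPM dorsally and 32.1 and 34.2 TPM ventrally, with a log2 fold change of 1.04 (SE 0.45, adjusted p = 1). The dorsal marginal zone was the highest region of creb3l2 in each clutch, but its libraries differed more from each other than that of clutch 1 did from the ventral ones.

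Dissected regions were compared with whole embryos by the mean of the 5 region estimates on the log scale. None of 51 members passed, where 2 of 15848 genes did (0.0126%, both lower). At an unadjusted p under 0.05 there were 4 (2.96% of all genes), of which 2 were higher and 2 lower in the regions. With the block junb and ddit3 were higher and xbp1 lower, where 1.77% of all genes passed, 0.0757% higher and 1.69% lower, and DESeq2 without a block called junb alone. A mean of logs is at most the log of the mean, which lowers this contrast for unevenly distributed genes. It was negative for the markers foxi1, gsc and sox17a (log2 fold changes of -2.10, -2.40 and -1.58). For xbp1 the contrast was -0.55 (SE 0.18), and the plain mean TPM of the 5 regions was 0.866 and 0.817 of the whole embryo. Without either whole embryo library only junb passed with the block, and without dorsal marginal zone 1 there were 5 calls. These fits without 1 library were chosen after seeing the data.

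The level of junb, an immediate-early Jun gene, was 10.1 and 7.90 TPM in animal caps, 7.47 and 4.48 in dorsal, 11.8 and 5.03 in lateral and 13.2 and 4.29 in ventral marginal zones, 3.66 and 1.81 in vegetal masses, and 1.60 and 0.250 in whole embryos. All 10 region libraries were above both whole embryos. The whole embryo values rest on 54 and 7 counts, and the region values on 40 to 435. Within clutch 1 the regions exceeded the whole embryo 2.29-fold to 8.27-fold, and within clutch 2 7.24-fold to 31.6-fold. The log2 fold change was 2.84 (SE 0.71, adjusted p = 0.574) without the block and 2.86 (SE 0.36, adjusted p = 0.00370) with it, and it passed with the block without each library in turn (adjusted p up to 0.0228). It did not pass without the block in any of these fits. A mixture of the 5 regions would have a level within their range, and the measured whole embryo lay below that range in each clutch. Region libraries came from cut explants and whole embryo libraries from uncut siblings. Cutting, handling, the time of dissection and incubation, any difference in stage and separate collection cannot be told apart, and none of these was tested. Among the regions, vegetal mass was lowest in each clutch, with a log2 fold change of 1.87 (SE 0.56) in animal cap over vegetal mass (adjusted p = 0.0947, or 0.000747 with the block).

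The level of ddit3 was 9.48 and 9.14 TPM in animal caps, 11.5 and 15.6 in dorsal, 10.8 and 15.5 in lateral and 10.5 and 12.3 in ventral marginal zones, 9.59 and 12.2 in vegetal masses, and 5.76 and 7.62 in whole embryos. Here too all region libraries were above both whole embryos, by 1.65-fold to 1.99-fold in clutch 1 and 1.2-fold to 2.05-fold in clutch 2. Regions over whole embryos gave a log2 fold change of 0.80 (SE 0.35, adjusted p = 1), or 0.81 (SE 0.16, adjusted p = 0.0229) with the block. That call was lost without lateral marginal zone 2 (0.0519), ventral marginal zone 1 (0.0544) or either whole embryo library (0.365 without replicate 1 and 0.323 without replicate 2).

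**Figure D4:**
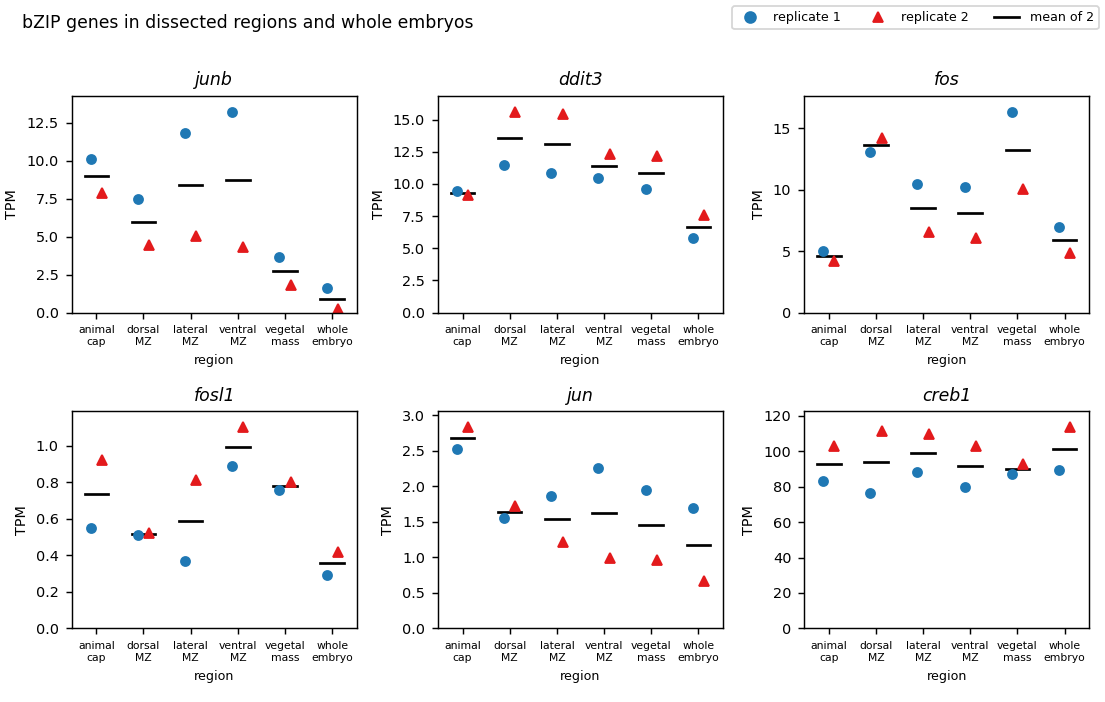
TPM of 6 bZIP genes in the dissected regions and in whole embryos, with 1 circle per replicate 1 library, 1 triangle per replicate 2 library and a bar at their mean. Both whole embryos of junb and ddit3 lie below all 10 region libraries, those of fos lie within the range of the regions of their clutch, and those of creb1 above it.

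Every region library exceeded both whole embryos in 2 of 43 members with a mean of at least 1 TPM, junb and ddit3, where 0.225% of 13772 genes did so, and the reverse held for 0 members (0.312%). Set against the regions of its own clutch, the whole embryo was below all 5 in both clutches for junb and ddit3 (1.15% of genes) and above all 5 for creb1 (2.14%), the cAMP effector itself, and with a minimum mean of 0.1 TPM it was below them for fosl1 as well. The level of creb1 was 89.5 and 113 TPM in whole embryos and 76.3 to 88.5 TPM in clutch 1 and 93.0 to 111 TPM in clutch 2 over the regions, which is 0.819 to 0.989 of the whole embryo of the clutch.

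Of the other fos/jun genes 4 had higher and 3 lower estimates in the regions, and none passed in either fit. The log2 fold change of regions over whole embryos was 0.62 (SE 0.25) for fos, 0.62 (SE 0.43) for jun, 0.99 (SE 0.57) for fosl1 and 0.86 (SE 0.90) for fosb, and none passed with the block (adjusted p = 0.170, 0.619, 0.512 and 0.784). It was near 0 for jund (-0.04) and fosl2 (-0.06) and -0.32 (SE 0.53) for junb.2. The median over the 8 genes was 0.62, over the 51 members -0.02 and over all genes -0.01. In fos the animal cap was below the whole embryo in each clutch, so that the regions enclosed it. The counts of fosl1 and fosb were at most 18 in any library. Of the 13 other immediate-early genes none passed as higher in the regions in either fit. The gene klf2 was lower with the block, with a log2 fold change of -1.84 (adjusted p = 0.000174, or 0.0716 without it). By TPM the whole embryo of nr4a1 (0.70 and 0.63) lay below all regions of its clutch (0.77 to 1.88 and 0.65 to 2.38). That of egr2 did so too, at a very low level (0.12 and 0.06 TPM). The log2 fold changes of nr4a1 and egr2 were 0.865 and 1.18 (adjusted p = 0.241 and 0.661 with the block). Over the 13 genes estimates went both ways, with a median log2 fold change of 0.15. The level of klf2 was 52.8 and 35.5 TPM in animal caps and 4.18 to 14.9 TPM in the other regions. For such an uneven profile a mean of logs lies below the log of the mean. How much of the klf2 contrast this accounts for was not tested. Whole embryos held klf2 at 44.8 and 39.3 TPM, within the range of the regions in clutch 1 and above it in clutch 2.

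The clutches themselves were compared because their distance sets the spread of the fits without a block. With region as a covariate 29 of 51 members differed between replicate 2 and replicate 1, 17 higher and 12 lower, where 65.9% of all genes did, 31.9% higher and 34% lower. The split depends on the scaling, with 12 higher and 15 lower by library size alone and 10 higher and 19 lower by limma on TPM. Replicate 2 libraries were also the shallower ones. In lateral marginal zone the depths were close, at 27352329 and 26335531 expected counts, and in the other groups they differed more. A part of library depth in the shift between clutches was not tested. Each replicate number stands for a single clutch, so that its libraries are parts of that clutch and not separate clutches. The adjusted p values and standard errors of this comparison therefore measure how steady a shift was over these libraries. They do not measure a spread among clutches.

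**Figure D5:**
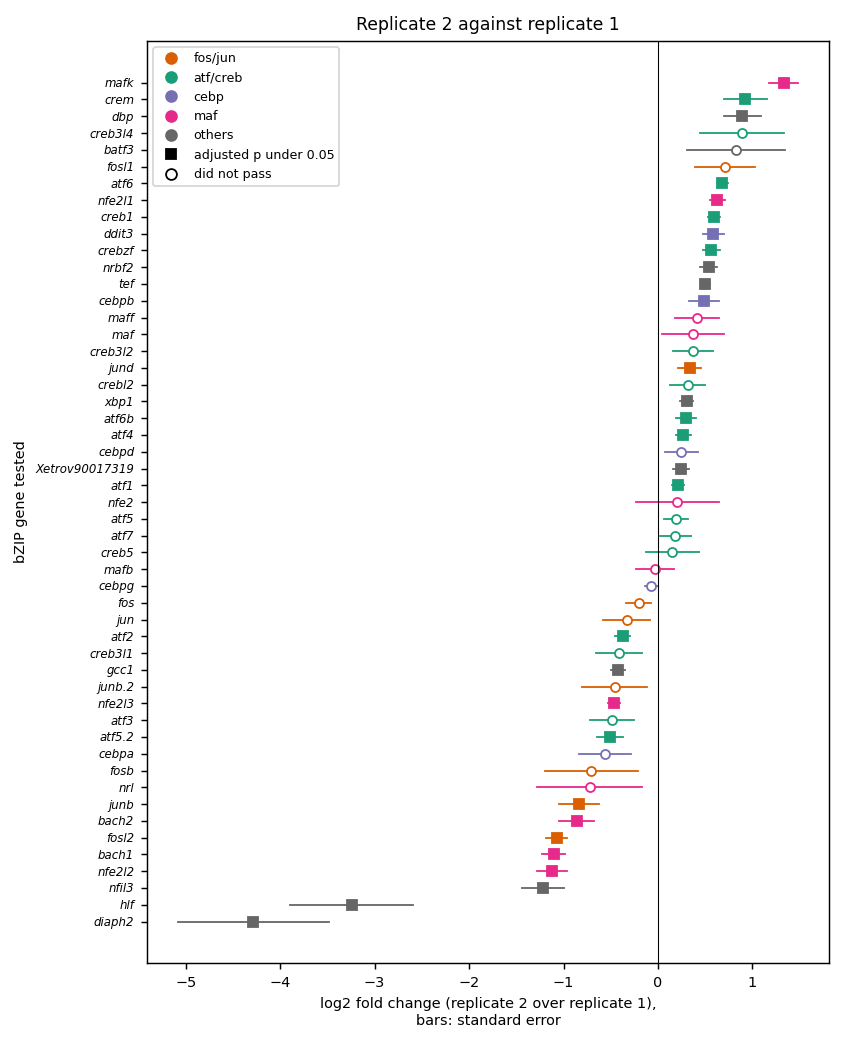
Log2 fold change of the 51 bZIP genes tested in replicate 2 over replicate 1, over all 6 groups, with bars for the standard error. Filled squares passed at an adjusted p under 0.05 (29 genes), open circles did not, and diaph2 and hlf stand far below the other genes.

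Of the genes lower in replicate 2, diaph2 had 48 counts over the replicate 1 libraries and 1 over those of replicate 2, a ratio per total counts of 31.6 with an exact 95% interval for counting error of 5.41 to 1274. For the PAR gene hlf, a relative of tef, these were 80 and 4 counts, with a ratio of 13.2 and an interval of 4.95 to 49.5. The vegetal mass held 41 of the replicate 1 counts of hlf and 0 in replicate 2, so that its highest level, 3.19 TPM, was found in 1 clutch only. Both genes were higher in replicate 1 in all 6 groups.

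Several of the genes that stood out in vegetal mass were also lower in replicate 2, among them nfil3 (log2 fold change -1.22, SE 0.22), nfe2l2 (-1.12, SE 0.16), bach1 (-1.11, SE 0.12), fosl2 (-1.07, SE 0.11) and bach2 (-0.86, SE 0.19), each with an adjusted p of 0.00179 or less and lower in all 6 groups. In each of the 5 the vegetal mass was above the animal cap within each clutch. Of all genes, 34% were lower in replicate 2. The genes atf5.2 and gcc1 were also lower in replicate 2 in all 6 groups (-0.51 and -0.42, adjusted p = 0.00793 and 0.000591). Other members higher in vegetal mass did not follow: atf6 and cebpb were higher in replicate 2 (0.68 and 0.485), and atf5, cebpd, cebpg and nrl did not pass. By TPM, however, cebpg was lower in replicate 2 in 6 groups, nrl in 5, atf5 in 4 and cebpd in 3. Higher in replicate 2 were mafk, a small Maf gene (1.33, SE 0.15), crem, a cAMP-responsive relative of creb1 (0.93, SE 0.23), and dbp (0.89, SE 0.19), also in all 6 groups. Among abundant members tef (0.50), creb1 (0.59) and atf6 (0.68) were higher in replicate 2 in all 6 groups, while xbp1 was so in 5 of 6, with a log2 fold change of 0.31 (SE 0.07).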

How the data were processed

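Poly-A RNA of 5 dissected regions and of whole embryos was sequenced with a non-stranded kit, and all 12 libraries were used. The authors mapped the reads with RSEM 1.2.12 to gene models of the v9.0 assembly and deposited an expected count per gene model, which estimates reads and is not normalized between libraries. The TPM values deposited by the authors correct these for transcript length and library depth. Depth was 14634582 to 29166548 expected counts per library, and intervals on counts cover counting error only.

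Members were found by domain and identifier in the study's catalog. Members, groups and lists were chosen with earlier results of these data known. Rounded expected counts that passed filterByExpr were scaled with TMM factors and entered edgeR's quasi-likelihood test (edgeR 4.0.16, robust glmQLFit, R 4.3.3), with 15727 genes in the fit of the 10 region libraries and 15848 in that of all 12. P-values were adjusted by Benjamini-Hochberg over all genes tested. The study's EBSeq was not used. Values in every library are given for members with an adjusted p under 0.05 in either fit, a log2 fold change of 1 or more in size and 1 TPM or more as the mean of some group, and for the highest member of each group. Replicate numbers pair the samples by clutch, and deviations of same-numbered libraries from their group means had correlations of 0.631 to 0.799 over 15 pairs of groups (median 0.733). Alternatives were the replicate block, DESeq2 1.42.0, library size alone, no filter, limma 3.58.1 on log2 TPM with a pseudocount of 1 or 0.1, fewer libraries, other TPM minima, each clutch alone and each library left out. The fits with the block and a library left out, or with the block and library size alone, were chosen after seeing the data. A list of targets of the unfolded protein response could not be matched by name and is not analysed here. The test script was first run on simulated counts. Tables and figures were made with Python 3.11.15, numpy 2.4.6, pandas 2.3.3 and matplotlib 3.10.9.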

Additional observations from a re-analysis of the deposited data

Results flagged for a closer look

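In 11 cases a member moved in opposite directions in the 2 clutches, by at least 0.2 on the log2 scale of TPM in each, and none of these differences was tested. The difference between the clutches, as clutch 2 minus clutch 1, was 1.30 for creb3l2 and 0.57 for crem in animal cap minus vegetal mass. In the mean of the 5 regions minus whole embryo it was -0.72 for atf3, 0.77 for mafb and 0.96 for maff. In dorsal minus ventral marginal zone it was 1.30 for atf3, 1.44 for crem, 1.26 for jun, 0.56 for maff, -0.69 for mafk and 0.77 for nfe2l2. None of these members passed in the comparison concerned, without or with the block.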

How the results depend on the processing

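No gene that passed in the fit without a block changed direction under the alternatives run for it, but the balance of the clutch comparison turned, from 17 higher and 12 lower to 12 and 15 by library size alone and 10 and 19 by limma. With the replicate number as a block, which pairs libraries by clutch, 29 bZIP genes passed in animal cap against vegetal mass, 31 in any pair of regions and 3 in dissected regions against whole embryos, in place of 5, 5 and 0. It left dorsal against ventral marginal zone at 0. DESeq2 gave 14, 16 and 1. Shares of all genes were not counted for DESeq2, for fewer libraries or for library size alone. Member counts under these settings therefore have no background to be set against. With only the 4 libraries compared, 2 passed in animal cap against vegetal mass. These were xbp1 and nfil3 (adjusted p = 0.0234 and 0.0473 in edgeR's test). The calls of cebpa, cebpd, creb5 and fos were lost in that fit (adjusted p = 0.0894, 0.0720, 0.158 and 0.198). Leaving out 1 library at a time gave 1 to 4 for animal cap against vegetal mass and 1 to 4 for any pair, and with the block 20 to 29 for the former and 1 to 5 for dissected regions against whole embryos. With library size alone the fit with the block gave 28 and 3. The whole embryo lay outside the range of the regions for 3 of 43 members over both clutches. Over all genes it lay below for 1.15% and above for 2.14%. In clutch 1 alone it lay outside for 4 members, 3 below and 1 above (6.11% and 8.55% of all genes). In clutch 2 alone it lay outside for 12, 7 below and 5 above (8.72% and 9.08% of all genes). Of the single genes, fos was also lost with limma (adjusted p of 0.0886 and 0.0863). The causes of these shifts were not tested, other than that fewer libraries enter some fits. With 2 libraries a group, members of a few counts, such as nrl, creb3l4, fosb and fosl1, could show large differences alone.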
